A study of Arabidopsis thaliana with 14 samples.

Results

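A group of 79 probe sets, of 22746 non-control probe sets on the array, lost signal in steady steps over 12 h in Arabidopsis seedlings that received no compound. They were chosen by their signals on the 6 untreated arrays. A probe set belonged to the group when its mean untreated signal was at least 1.5 times higher at 0 h than at 3 h, and again at least 1.5 times higher at 3 h than at 12 h. Its 0 h mean also had to reach about the highest median signal of any array (168.6), and both arrays of each later time had to lie below both arrays of the earlier time. These criteria left 86 probe sets, of which 5 for plastid genes and those for AT3G22620 and AT3G02480 were set aside. The annotation gave a single gene for 31 of the 79 and had no entry for the other 48, which are called by their probe set number and could not be checked for plastid or mitochondrial genes.

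The RNA came from whole wild-type Col-0 seedlings at 6 days after germination, hybridised to Affymetrix ATH1 arrays, 14 in all, in 7 groups of 2. All had a day of 16 h light with 8 h darkness at 22 °C, and they spent 1 day in liquid 0.5x MS medium. The groups were untreated seedlings at 0 h, 3 h and 12 h, seedlings given 50 µM of compound 7606596 for 3 h or 12 h, and seedlings given 50 µM of compound 5929745 for 3 h or 12 h. Both compounds are known here by code number, and the labels state neither a solvent control nor the hour of the day at which seedlings were collected. Nothing in the labels says that the 2 samples of a group were grown separately, so p-values measure the spread between these samples, which may be technical.

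Many Arabidopsis transcripts cycle over the day. Light, the circadian clock and the supply of sugar from photosynthesis all set such cycles, and groups of genes with the same peak hour rise and fall together in seedlings. In whole seedlings, a lower signal from fewer cells of a type and one from less RNA per cell cannot be told apart. The values are MAS5 signals, a linear brightness per probe set that was scaled on each array, and they serve to compare arrays for 1 probe set, not 1 probe set with another.

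Because the untreated arrays chose the members, their fall in untreated seedlings is a description and carries no test. The ratio of the 0 h mean to the 12 h mean ran from 2.39 to 190 with a median of 4.63. It was at least 4 in 43 members, at least 10 in 17 and at least 100 in 3. The median ratio was 1.71 from 0 h to 3 h and 2.23 from 3 h to 12 h. On the log2 scale, a median of 40.4% of the fall was complete by 3 h, with a range from 10% to 73.4%, and in 15 members the larger share of it came before 3 h. At 12 h, 8 members had a mean signal below 42.3, the level used to filter dim probe sets, so their ratios depend on the background of the array.

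**Figure D1:**
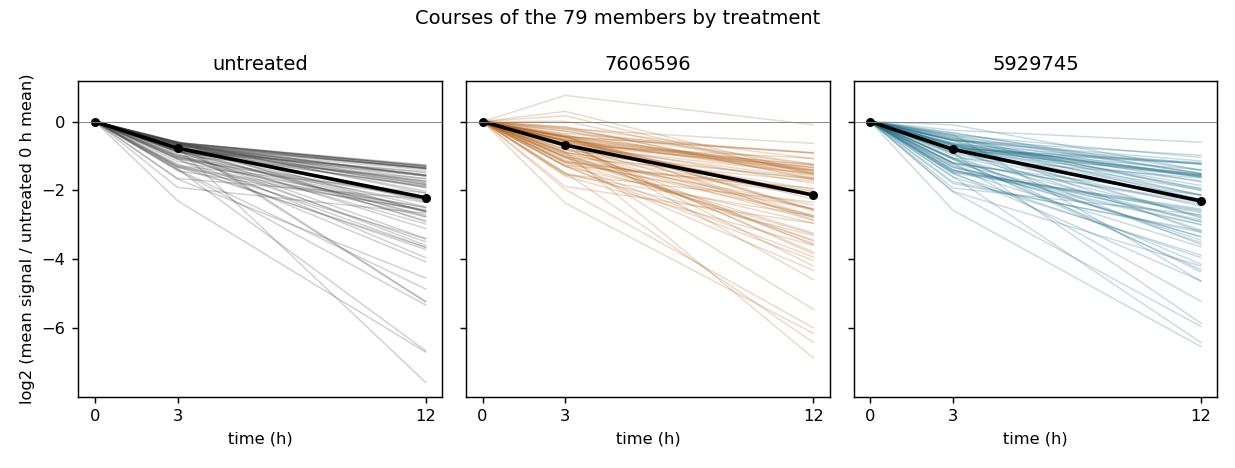
Log2 ratio of each member's group mean to its untreated 0 h mean, against time in h, for untreated seedlings and for each compound (both start at the untreated 0 h mean). Thin lines are the 79 members and the thick line with points is their median. Untreated lines fall at both steps by the choice of members, and the median lines of the treated seedlings also fall at both steps.

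The smaller of a member's 2 steps lay close to the limit in several cases, down to 1.5003 in 260308_at. Among members with a gene, those closest to the limit were AT5G02230, AT1G76110 and AT5G56100, with a 0 h to 3 h ratio of 1.52, 1.53 and 1.53. Just outside, among probe sets with a gene, lay AT3G01060 with a ratio of 1.4996, AT5G13100 with 1.497 and AT5G48490 with 1.489. AT3G01060 had mean signals of 2142, 1428 and 363 at the 3 times, so its second step was larger than that of many members.

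Of the 31 members with a gene, the largest untreated ratio belonged to AT1G55960, of the START-like lipid-transport superfamily. Its signals were 4987 and 4874 at 0 h, 2085 and 2005 at 3 h, and 352 and 400 at 12 h, a ratio of 13.1. AT3G54510, of the OSCA family of calcium-permeable channels gated by osmotic stress, gave 576 and 495 at 0 h, 185 and 244 at 3 h, and 56.2 and 29.0 at 12 h. These levels at 12 h lie near the filter level. AT4G19820, a chitinase-type glycosyl hydrolase, gave 449 and 447 at 0 h, 245 and 249.9 at 3 h, and 24.2 and 50.3 at 12 h. AT2G41250, a haloacid dehalogenase-like hydrolase, gave 3988 and 3716, then 1509 and 1769, then 349.6 and 378. No arrays of neighbouring times overlapped in these genes, as the criteria required.

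Among probe sets with no gene, chosen here after their values were seen, 256266_at gave 2536 and 2758 at 0 h, 1679 and 1453 at 3 h, and 23.3 and 4.56 at 12 h. Most of its fall thus came after 3 h. In contrast, 261569_at gave 6696 and 6167 at 0 h, 1264 and 1353 at 3 h, and 78.2 and 46.3 at 12 h, a large drop at each step. The 12 h signal of 256266_at lay on both arrays far below the filter level, so the size of its ratio of 190 is poorly fixed.

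The change from 3 h to 12 h in treated seedlings compares means of treated arrays, which did not choose the members, and was tested. The spread behind its standard errors and p-values was estimated over all 14 arrays, the untreated ones included, so counts from a fit on the 8 treated arrays stand beside it. Where 2 log2 changes stand together for a gene, the first is with 7606596 and the second with 5929745. The comparison asks whether the same transcripts also fell over these hours in seedlings that had received a compound. With 7606596, 77 of the 79 members fell (limma, adjusted p under 0.05) and 0 rose, also at an unadjusted p under 0.05, while 12.4% of all 15922 probe sets tested fell and 14% rose. With 5929745, 76 fell and 0 rose, also at an unadjusted p under 0.05, against 11.5% and 13.8% of all probe sets. The median log2 change of the members was -1.33 with 7606596 and -1.23 with 5929745, where the medians over all probe sets were 0.02 and 0.01. On the 8 treated arrays alone, 75 members fell with 7606596 and 75 with 5929745. The share of all probe sets called in that fit is not given here, so these counts are set only beside the 77 and 76. Members ranged from -4.60 to -0.37 with 7606596 and from -4.61 to -0.36 with 5929745. Both 3 h arrays lay above both 12 h arrays in 79 of 79 members with each compound, against 29.6% of all probe sets with 7606596 and 29.5% with 5929745.

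**Figure D2:**
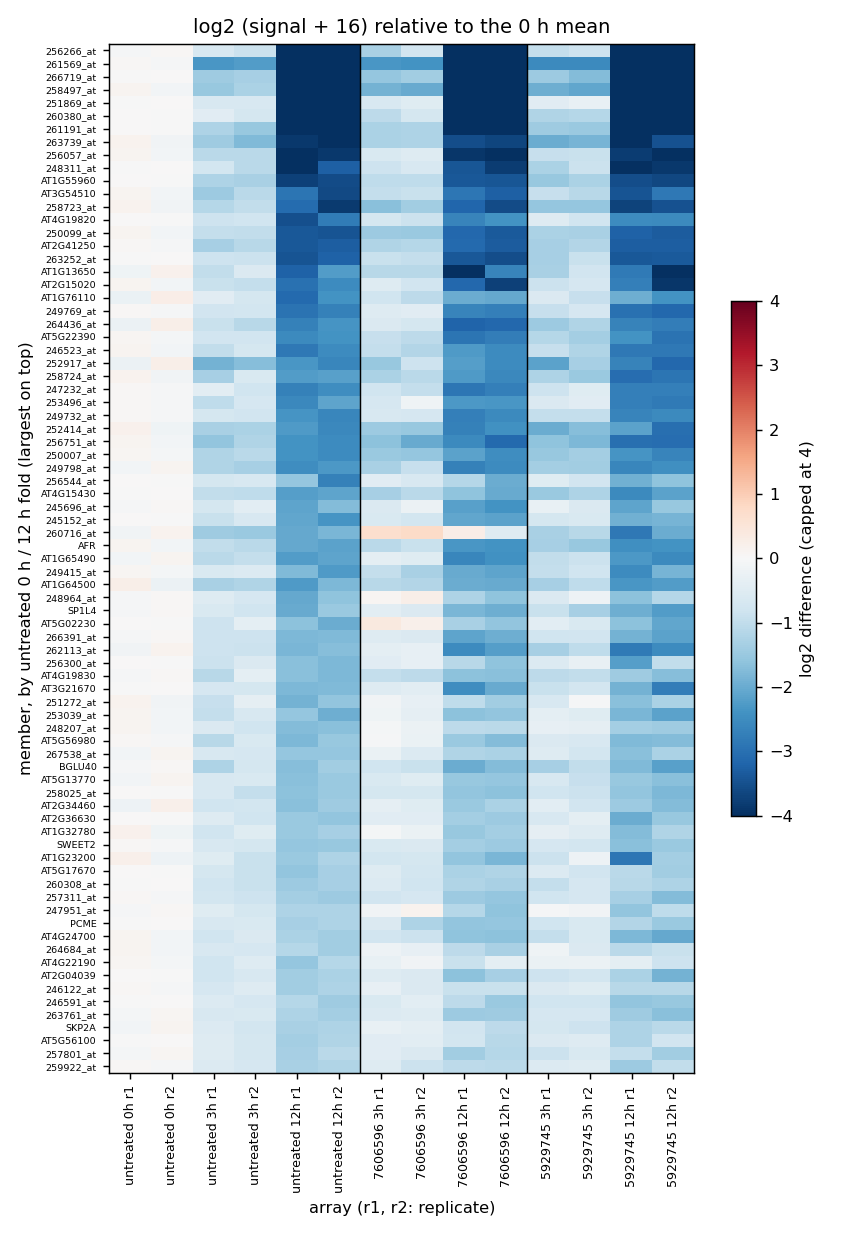
Log2 of signal plus 16 on each of the 14 arrays, less the untreated 0 h mean, for each of the 79 members in rows (colour, capped at 4 in size). Members are ordered by untreated ratio of 0 h to 12 h, and vertical lines separate untreated, 7606596 and 5929745 arrays. The 12 h columns are darker blue than the 3 h columns in all 3 treatments, and 260716_at stands out as pale with 7606596.

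The genes are grouped below by role, in groups made after values were seen. Their counts restate the fall of nearly all members (77 of 79 with 7606596, 76 with 5929745) and are no result about a role. Genes of transport fell with both compounds in 5 of 5 cases. SWEET2, a sugar transporter of the vacuolar membrane, had untreated signals of 6498 and 6025 at 0 h, 3970 and 3846 at 3 h, and 2114 and 2157 at 12 h. With 7606596 its signals were 4060 and 4224 at 3 h and 2431 and 2251 at 12 h, and with 5929745 they were 3920 and 3730 at 3 h and 1948 and 2235 at 12 h. The 3 h and 12 h arrays did not overlap in any treatment, and the log2 change was -0.82 ± 0.10 (SE) with 7606596 (limma, adjusted p = 9.79e-06) and -0.87 ± 0.10 with 5929745 (adjusted p = 5.65e-06). AT3G21670, of the nitrate transporter family NRT1/PTR, had untreated signals of 2650 and 2715, then 1663 and 1658, then 752 and 774. Its 7606596 signals were 1881 and 2019 at 3 h and 463 and 657 at 12 h, and its 5929745 signals were 1441 and 1620 at 3 h and 704 and 381 at 12 h. The log2 changes from 3 h to 12 h were -1.79 ± 0.20 (SE) with 7606596 (limma, adjusted p = 1.66e-06) and -1.53 ± 0.20 with 5929745 (adjusted p = 1.17e-05). AT3G54510 fell (-2.16 and -2.15) with the 2 compounds. The sulfite-exporter family gene AT2G36630 fell (-0.94 with 7606596 and -1.23 with 5929745). AT4G15430, of the same OSCA family as AT3G54510, fell (-0.60 and -0.98). Its call with 7606596 was lost without 3 h replicate 2 (-0.48) or without 12 h replicate 2 (-0.41). That call was also lost with no filter (limma adjusted p = 0.0642) and on the 8 treated arrays (0.0597).

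All 5 chloroplast and light-signalling genes fell too. AFR, an F-box and kelch protein of phytochrome A signalling in far-red light, had untreated signals of 670.5 and 584 at 0 h, 309 and 285 at 3 h, and 139 and 128 at 12 h. With 7606596 it gave 289.9 and 330.4 at 3 h and 110.5 and 107 at 12 h, and with 5929745 it gave 239 and 207 at 3 h and 100.4 and 106 at 12 h. The arrays of 3 h and 12 h were well apart in each treatment, and AFR fell (-1.38 and -1.0) with 7606596 and 5929745. AT2G04039, a subunit of the chloroplast NDH complex, had untreated signals of 2862 and 2853, then 1622 and 1816, then 1069 and 1178, and fell (-0.93 and -0.81) with the 2 compounds. The glutaredoxin-family gene AT1G64500 fell (-0.85 and -1.11), and AT2G34460, a Rossmann-fold chloroplast protein, fell (-0.94 and -0.99). AT4G19830, an FKBP-type peptidyl-prolyl isomerase whose gene lies next to AT4G19820, fell (-0.65 and -0.55). Its call with 5929745 was lost with no filter (limma adjusted p = 0.0759) and with no variance trend (0.0619). Its call with 7606596 was lost without 3 h replicate 1 (-0.60, limma adjusted p = 0.0868), 12 h replicate 1 (-0.67, 0.0513) or 12 h replicate 2 (-0.63, 0.068). With 5929745 it was lost without 3 h replicate 1 (-0.58, limma adjusted p = 0.107), 3 h replicate 2 (-0.53, 0.15) or 12 h replicate 2 (-0.41, 0.218).

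Enzyme and lipid-binding genes fell with both compounds in 9 of 9 cases. AT1G55960 read 2416 and 2428 with 7606596 at 3 h and 452.5 and 442 at 12 h, and 1730 and 2021 with 5929745 at 3 h and 411 and 381 at 12 h. Its 3 h arrays were far above its 12 h arrays in each treatment, and the log2 change was -2.40 ± 0.12 (SE) with 7606596 (limma, adjusted p = 3.71e-11) and -2.19 ± 0.12 with 5929745 (adjusted p = 1.24e-10). AT2G41250 read 1674 and 1744 with 7606596 at 3 h and 428 and 373 at 12 h, and 1521 and 1692 with 5929745 at 3 h and 379 and 379 at 12 h. Its log2 changes were -2.05 ± 0.12 and -2.04 ± 0.12 (limma, adjusted p = 4.74e-10 and 6.49e-10). AT5G02230, the other haloacid dehalogenase-like gene, fell (-1.72 with 7606596 and -1.36 with 5929745). AT4G19820 fell (-1.75 and -1.86), and AT1G32780, an alcohol dehydrogenase-like gene (-1.26 and -1.03).

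Several calls among the enzyme genes were lost when 1 array was left out, which leaves 1 array in its group. PCME, which removes the methyl group from isoprenylated proteins, fell (-0.66 and -0.62) with the 2 compounds. Its 7606596 call was lost without 3 h replicate 1 (-0.34, limma adjusted p = 0.259), 12 h replicate 1 (-0.64, 0.0581) or 12 h replicate 2 (-0.67, 0.0527), and its 5929745 call without 3 h replicate 2 (-0.52, 0.143) or 12 h replicate 2 (-0.46, 0.158). BGLU40, a beta-glucosidase, fell (-1.01 and -0.82), with the second call lost without 3 h replicate 2 (-0.66, limma adjusted p = 0.0952) or 12 h replicate 2 (-0.61, 0.0877). The alpha/beta hydrolase gene AT5G17670 fell (-0.61 and -0.59), with the 7606596 call lost without 3 h replicate 1 (-0.49, limma adjusted p = 0.0579) and the 5929745 call without 3 h replicate 1 (-0.48, 0.0743) or 12 h replicate 2 (-0.42, 0.0748). AT1G23200, a pectin methylesterase-type gene, fell (-0.98 and -1.60). Its 7606596 call was lost without any 1 of the 4 arrays (-1.11 to -0.86, limma adjusted p = 0.085 to 0.2), and also with an offset of 1 (0.0812), with no filter (0.118), with quantile normalization (0.0622), with no variance trend (0.095) and on the 8 treated arrays (0.0802). Its 5929745 call was lost without 3 h replicate 2 (-1.26, 0.0558) or 12 h replicate 1 (-0.82, 0.0659).

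Of 4 genes of regulation and the cytoskeleton, 4 fell with each compound. AT1G76110, which has HMG-box and ARID DNA-binding domains, fell (-1.10 and -1.42), and AT5G13770, of the pentatricopeptide repeat proteins that bind organelle RNA, fell (-0.98 and -0.81). SP1L4, a SPIRAL1-like microtubule protein, fell (-1.38 and -1.0), the second call being lost without 3 h replicate 1 (-0.77, limma adjusted p = 0.0565). SKP2A, an F-box protein that targets cell-cycle regulators, fell (-0.56 and -0.40). Its 5929745 call was lost with no filter (limma adjusted p = 0.0527), with no variance trend (0.0682) and on the 8 treated arrays (0.0561). Its 7606596 call was lost without 12 h replicate 2 (-0.42, limma adjusted p = 0.0816), and its 5929745 call without 3 h replicate 1 (-0.32, 0.219), 3 h replicate 2 (-0.47, 0.0723) or 12 h replicate 1 (-0.31, 0.211).

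For 8 genes no role is given here, and 7 of the 8 fell with each compound.
AT2G15020 fell (-2.80 with 7606596 and -2.57 with 5929745), and AT1G13650 (-2.21 and -2.37). At 12 h, AT1G13650 gave 4.98 and 36.9 with 7606596 and 31.1 and 5.04 with 5929745, all below the filter level. The size of its fall thus depends on the offset: with 7606596 it was -3.20 with an offset of 1 and -1.27 with 64. For AT2G15020 these values were -3.20 and -2.08. AT1G65490 fell (-2.07 and -1.5), AT5G22390 (-1.85 and -1.42), AT5G56980 (-1.46 and -1.15), and AT4G24700 (-0.81 and -1.13). AT5G56100 fell (-0.50 and -0.46). Its 7606596 call was lost without 3 h replicate 1 (-0.51), 3 h replicate 2 (-0.48) or 12 h replicate 2 (-0.30). That call was also lost with no variance trend (limma adjusted p = 0.0555). With 5929745 the call was lost without 3 h replicate 1 (-0.49), 3 h replicate 2 (-0.42) or 12 h replicate 1 (-0.22). It was also lost with no filter (limma adjusted p = 0.0554) and with no variance trend (0.0783). AT4G22190 missed the threshold with both compounds, at -0.44 ± 0.17 (SE) with 7606596 (limma, adjusted p = 0.0677) and -0.36 ± 0.17 with 5929745 (adjusted p = 0.139). Its signals were 1838 and 2044 at 3 h and 1193 and 1701 at 12 h with 7606596, and 1863 and 1909 at 3 h and 1696 and 1268 at 12 h with 5929745, so its 12 h arrays were far apart. Of the 48 probe sets with no gene, 47 fell with 7606596 and 46 with 5929745. The exceptions were 259922_at with 7606596, and 257801_at and 260308_at with 5929745.

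**Figure D3:**
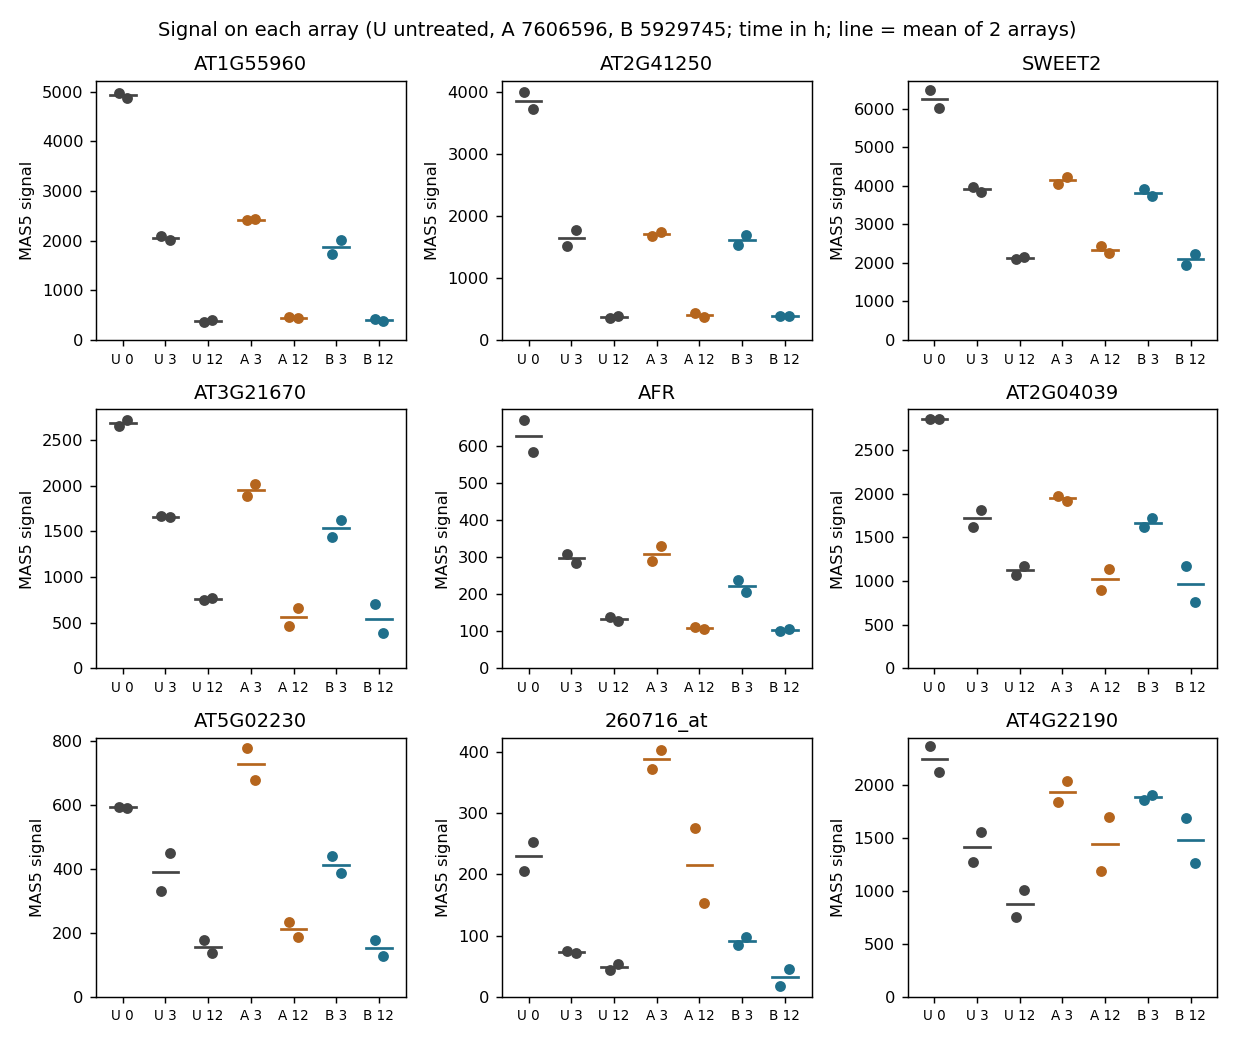
MAS5 signal on each array (points) and mean of 2 arrays (line) for 9 members, with U for untreated, A for 7606596 and B for 5929745, and the time in h. In AT1G55960, AT2G41250 and SWEET2 the treated arrays lie near the untreated arrays of the same time, while 260716_at is high with 7606596, and the 12 h arrays of AT4G22190 are widely spread.

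The size of the fall from 3 h to 12 h in treated seedlings followed that in untreated seedlings from member to member. Across the 79 members, the log2 change in untreated seedlings correlated with that under 7606596 with r = 0.907 (rho = 0.821) and with that under 5929745 with r = 0.943 (rho = 0.846). The points share the array platform and the dimness of a probe set, and the untreated changes had chosen the members, so these values describe the group. The change under 7606596 lay within 0.5 of the untreated change in 56 members, and that under 5929745 in 67. With 7606596, AT2G15020 fell further than in untreated seedlings (-2.80 against -1.83), as did 262113_at (-2.01 against -0.91) and 264436_at (-2.52 against -1.54). AT1G76110 changed less with 7606596 than in untreated seedlings (-1.10 against -2.18). So did 256266_at, which differed most of all members (-4.12 against -5.80) and whose untreated 12 h signals lay below the filter level. With 5929745 the change was -2.57 in AT2G15020, -1.51 in 262113_at, -1.39 in 264436_at, -1.42 in AT1G76110 and -4.61 in 256266_at. All of these but 264436_at thus lay on the same side of the untreated change with both compounds. The log2 change includes an offset of 16, which shortens the fall of dim members.

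**Figure D4:**
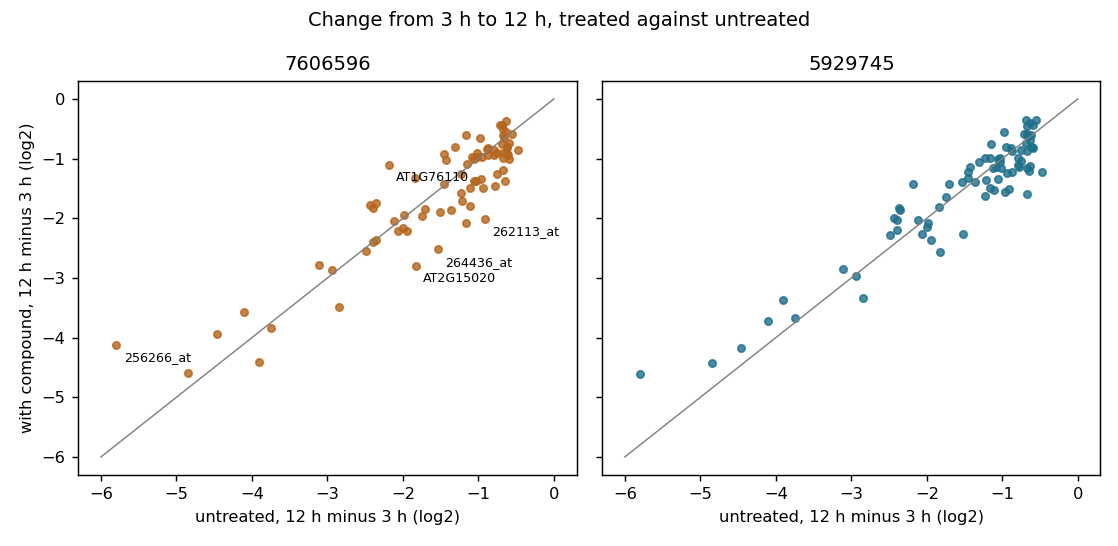
Log2 change from 3 h to 12 h in untreated seedlings (x axis) against that with 7606596 or 5929745 (y axis), 1 point for each of the 79 members, with the line of equality. Points follow the line in both panels (r = 0.907 and 0.943), and the 5 members that differ most from untreated seedlings with 7606596 are labelled in its panel.

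At each time, levels with a compound were set beside the untreated level, again with no test because the untreated arrays chose the members. At 3 h the median log2 difference from untreated seedlings was 0.11 with 7606596 and -0.04 with 5929745, and at 12 h it was 0.09 and -0.07. The difference was within 1.5-fold in 73 of 79 members with 7606596 at 3 h, in 66 at 12 h, in 78 with 5929745 at 3 h and in 71 at 12 h. The share of all probe sets within 1.5-fold is not given here, so nothing is read from these counts. With 7606596, the lower and upper quartiles over all probe sets were -0.20 and 0.17 at 3 h and -0.18 and 0.14 at 12 h. With 5929745 they were -0.17 and 0.16 at 3 h and -0.18 and 0.15 at 12 h. At 3 h, both 7606596 arrays lay above both untreated arrays in 38 members (22.8% of all probe sets did) and below them in 13 (26.8% of all). Both 5929745 arrays lay above in 12 (22.1%) and below in 24 (24.4%). At 12 h the counts with 7606596 were 27 above (21.6%) and 21 below (26%), and with 5929745 they were 12 above (22.3%) and 16 below (23.7%). The full order of 0 h above 3 h above 12 h, with no overlap of arrays, was kept by 71 members with 7606596 and 76 with 5929745, against 6.53% and 6.39% of all probe sets. The 0 h arrays had chosen the members, so nothing is read from these counts.

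Technical probes differed between the later untreated arrays and the other arrays. The mean log2 signal of 24 probe sets for added poly-A control RNA was 6.47 to 6.6 on the 4 later untreated arrays and 4.67 to 5.25 on the other 10 arrays. Hybridization controls were at 10.45 and 10.51 on the untreated 12 h arrays and at 10.81 to 11.21 on the others. In untreated seedlings, poly-A signals thus went from 4.87 and 4.69 at 0 h to 6.6 and 6.5 at 3 h, a step that chose the members. The part of these controls in the untreated falls and in the differences from untreated seedlings was not tested. Within a compound, poly-A signals stayed within the lower range at both times but were not constant. With 5929745 they went from 5.14 and 5.08 at 3 h to 4.67 and 4.75 at 12 h. With 7606596 they were 5.25 and 4.91 at 3 h and 4.93 and 4.91 at 12 h. The part of this in the treated falls was not tested. The 25S ribosomal RNA signal moved with time in all treatments. In untreated seedlings it was 541 and 389.5 at 0 h, 277 and 212 at 3 h, and 206 and 184 at 12 h. With 7606596 it went from 531 and 466 at 3 h to 409 and 320.0 at 12 h. With 5929745 it went from 850.3 and 759.6 to 289.6 and 338. Its part in the falls, untreated or treated, was not tested.

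The green-tissue list yielded 1 of 6 markers, RCA, the activase of Rubisco. Its signal was 34073 to 36165 at 0 h, 31214 to 31911 in untreated seedlings at 3 h and 19938 to 22202 at 12 h, and with the compounds it was 28619 to 33946 at 3 h and 19188 to 21969 at 12 h. It also was lower at 12 h, and its part in the falls was not tested. The summed signal of 3 of 7 root markers, AT3G45700, PYK10 and AT1G73160, was 13537 to 20434 at 0 h. In untreated seedlings it was 12735 to 14941 at 3 h and 15704.5 to 15998 at 12 h. With the compounds it was 11064 to 15356 at 3 h and 11641 to 14559 at 12 h. It was thus higher in untreated than in treated seedlings at 12 h, and its part in the falls was not tested. The sum of 2 of 3 pollen markers was at most 50.8. None of 6 seed reserve markers was found through the annotation, which left many probe sets without a gene, so their levels were not analysed here.

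Both compounds were given at the same dose, so their levels could be compared at the same hour, and the means compared come from treated arrays, with the spread again estimated over all 14. At 3 h, 3 of 79 members were higher with 7606596 than with 5929745 (limma, adjusted p under 0.05, 0.735% of all probe sets) and 0 were lower (0.182% of all). At an unadjusted p under 0.05 the counts were 14 and 0. At 12 h, 1 was higher (0.502% of all) and 0 lower (0.345% of all), with 9 and 2 at an unadjusted p under 0.05. The share of all probe sets at an unadjusted p is not given here, so nothing is read from the unadjusted counts. On the 8 treated arrays alone, 1 member was higher at 3 h and 1 at 12 h, again with no share of all probe sets given. The median difference was 0.14 at 3 h and 0.11 at 12 h, beside -0.02 and -0.01 over all probe sets. At 3 h both 7606596 arrays exceeded both 5929745 arrays in 36 members (18.8% of all probe sets) and lay below them in 3 (22.6%), and at 12 h the counts were 22 (16.1%) and 5 (18.2%). A difference of over 1 on the log2 scale lay outside the 95% interval in 72 members at 3 h and in 74 at 12 h.

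The probe set that differed at both times, 260716_at, has no gene in the annotation and was singled out after its values were seen. Its untreated signals were 206 and 253 at 0 h, 74.6 and 71.0 at 3 h, and 43.0 and 53.2 at 12 h. With 7606596 they were 372 and 403 at 3 h and 276 and 153 at 12 h, above every untreated array of the same time. With 5929745 they were 83.8 and 98.2 at 3 h and 17.7 and 45.5 at 12 h. The log2 difference between the compounds was 1.92 ± 0.27 (SE) at 3 h (limma, adjusted p = 0.000598) and 2.29 ± 0.27 at 12 h (adjusted p = 0.000175). The 12 h signal with 5929745 was near or under the filter level, so that difference rests on dim values.

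AT5G02230 gave 777.5 and 678 with 7606596 at 3 h and 441 and 387 with 5929745, where untreated seedlings gave 595 and 591 at 0 h and 331 and 449 at 3 h. The 2 compounds did not overlap, and the difference was 0.79 ± 0.18 (SE, limma, adjusted p = 0.046). It lost its call without any 1 of the 4 arrays (0.69 to 0.89) and on the 8 treated arrays (limma adjusted p = 0.0609). The call was also lost with an offset of 1 (limma adjusted p = 0.0684), with no filter (0.137) and with no variance trend (0.1435). Signals of 262113_at, also with no gene, were 410.5 and 427 with 7606596 and 207 and 259.8 with 5929745 at 3 h, a difference of 0.81 ± 0.18 (SE, limma, adjusted p = 0.0303). Its call too was lost without any 1 of the 4 arrays (0.66 to 0.96) and on the 8 treated arrays (limma adjusted p = 0.0882). The same held with no filter (limma adjusted p = 0.103) and with no variance trend (0.0641). For AT1G55960 the difference at 3 h was 0.37 ± 0.12 (SE, limma, adjusted p = 0.198), and for SWEET2 it was 0.11 ± 0.10 (adjusted p = 0.842).

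Whether the fall from 3 h to 12 h differed between the compounds was tested as an interaction. By limma, 0 of 79 members passed in either direction (0.0377% of all probe sets were lower and 0.0126% higher). At an unadjusted p under 0.05, 3 were lower and 1 higher, again with no share of all probe sets given. Differences ran from -1.13 in 264436_at to 0.61 in AT1G23200, and the 95% interval lay within 1 log2 unit of 0 in 63 of 79 members.

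**Figure D5:**
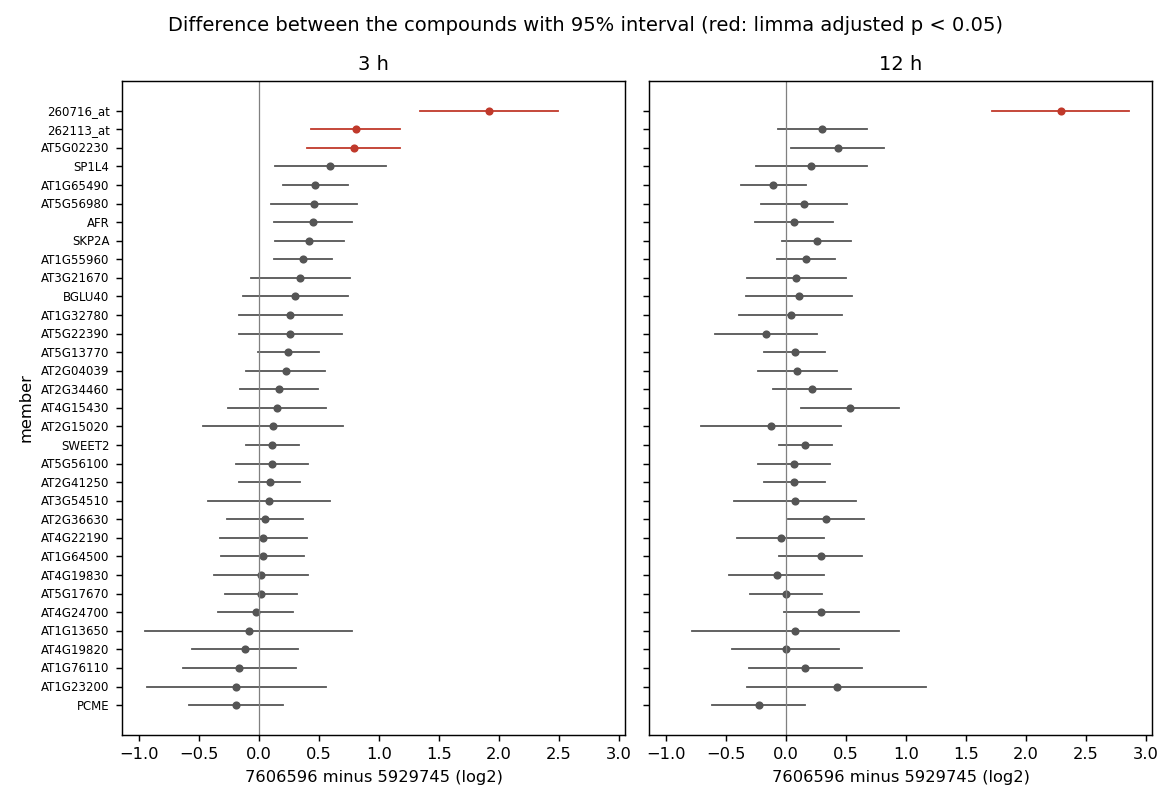
Log2 difference of 7606596 minus 5929745 at 3 h and 12 h with its 95% interval, for the 31 members with a gene and 2 without (260716_at and 262113_at). Red marks an adjusted p under 0.05, which 3 members reached at 3 h and 1 at 12 h.

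None of the 31 members with a gene belonged to the 18 lists of genes of light harvesting, clock, starch, hormones and stress. The 48 members without a gene could not be matched to a list, and 14 listed genes in 8 lists were found through the annotation. Of 17 light-harvesting genes, LHCB4.1 and LHCB4.2, antenna proteins of photosystem II, were measured and both fell from 3 h to 12 h with each compound. LHCB4.2 averaged 28380 ± 565 (SD, n = 2) at 0 h and 26582 ± 2144 at 3 h in untreated seedlings, then 6356 ± 152 at 12 h, so it lacked the first step of the members. Of 17 clock genes, GI, a component of the evening phase of the clock, was measured. GI averaged 280.4 at 0 h, 963 at 3 h and 340.3 at 12 h in untreated seedlings, a peak at 3 h, and fell (-0.91 with 7606596 and -1.23 with 5929745). In starch breakdown 1 of 9 genes was measured. DPE1, an enzyme of maltotriose metabolism, averaged 111 at 0 h, 317 at 3 h and 829 at 12 h, and rose by 1.27 with 7606596 and 1.18 with 5929745. Of 9 early auxin genes GH3.3 and WES1, which conjugate auxin to amino acids, were measured, and both fell with each compound.

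Most of the other listed genes did not pass the test between 3 h and 12 h. Of 10 cold-response genes 3 were measured, and LTI30, a dehydrin, fell with 7606596 (-0.64, limma adjusted p = 0.0185) and missed the threshold with 5929745 (-0.19, 0.523). COR47 and COR15B passed with neither compound. The gibberellin receptor gene GID1A rose with 7606596 (0.52, limma adjusted p = 0.00692) and missed the threshold with 5929745 (0.34, 0.0746). EIN3, a transcription factor of ethylene signalling, passed with neither compound (-0.29 and -0.36), and 0 of 3 measured genes of xenobiotic detoxification (AER, UGT73B5 and UGT73B4) passed between 3 h and 12 h with either.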

How the data were processed

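Per the submitters' processing notes, the authors made the deposited values with MAS5 (version not given in the sources used here), and they are linear signal intensity, 1 value per probe set and array. MAS5 scales each array on its own, so a signal is relative to the rest of its array. No arrays were combined. The sample records give many seedlings, not single plants, so the spread between 2 arrays is not a spread between plants. The number of arrays, 2 per group, limits the precision.

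From these values, the 64 control probe sets were left out, and a filter on the mean of the 14 arrays (30th percentile, 42.3) kept 15922 of 22746 probe sets. All 79 members passed. Log2(signal + 16) was fitted in R 4.3.3 with limma 3.58.1 (lmFit, eBayes with variance trend), 1 mean per group over all 14 arrays, which share 1 estimate of the spread. Tests were two-sided, with p-values adjusted by Benjamini-Hochberg over all kept probe sets, and a call was an adjusted p under 0.05. The fit was also run on simulated data, whose outcome is not given here, so nothing is read from that run. Comparisons that use untreated arrays got no p-value, because those arrays chose the members. All members and lists were chosen with earlier results of these data known.

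Gene names came from the platform annotation, with 31 of 31 loci found in RefSeq TAIR10.1. Genes were named by rule. These were the largest untreated ratios, the highest 0 h means, the smallest adjusted p among calls in each tested comparison, and those next to the threshold. The largest and smallest changes from 3 h to 12 h with each compound were also named. The other members with a gene complete the set. Role groups were made after values were seen. Alternatives varied the offset, filter, normalization, variance trend, replicate block, arrays left out and the selection criteria. Promoter windows were not used here.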

Additional observations from a re-analysis of the deposited data

How the results depend on the processing

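The selection of members depended on its limits: both ratios at 2 or more gave 19 members and a looser limit on both 315, while a 0 h mean of 84 or more gave 92 and quantile-normalized signals gave 89, of which 73 were among the 79. The counts of members that fell from 3 h to 12 h stayed at 73 to 77 with 7606596 and 72 to 76 with 5929745 under offsets of 1 and 64, no filter, quantile normalization, no variance trend, the replicate block and a fit of the 8 treated arrays (an alternative chosen after seeing the data). Leaving out 1 replicate gave 68 to 73 and 68 to 71. The count of members higher with 7606596 than 5929745 at 3 h fell from 3 to 1 without the filter, to 1 without the variance trend and to 1 on the 8 treated arrays, and was 1 whichever replicate was left out. AT5G02230 and 262113_at were the calls lost, and 260716_at was the one left. Fewer degrees of freedom among the arrays apply to the last 2 of these settings, and for the others the cause was not tested. Where an array was left out, its partner was assumed to vary like the other groups. The share of all probe sets called is not given here for any of these settings. Their counts of members are thus set only beside the counts reported in the Results. Of 448 values of single genes under other settings, 425 stayed on their side of the threshold, 23 lost it and 0 changed direction, and of 256 with a replicate left out, 213 stayed, 43 lost it and 0 changed direction. The 23 belong to AT1G23200 (6 settings, the replicate block among them), AT4G15430 and AT5G56100 with 7606596, to SKP2A, AT4G19830 and AT5G56100 with 5929745, and to AT5G02230 and 262113_at between the compounds, with limma adjusted p from 0.0504 to 0.144.

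Replicate numbers did not pair the samples: across 21 pairs of groups, deviations of same-numbered arrays correlated from -0.197 to 0.117 (median 0.01), and 1 pair exceeded 0.1. With the replicate number as a block, 76 members fell with 7606596 and 76 with 5929745, 3 were higher with 7606596 at 3 h and 1 at 12 h, and 0 differed in the interaction. Low signal limits the members under 42.3 at 12 h.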
